A study of Homo sapiens with 6 samples.

Results

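Small-subunit processome and small nucleolar ribonucleoprotein (snoRNP) genes were followed after knockdown of alpha satellite RNA (ALR), which is transcribed from centromeric repeats. The cells were H9, a human embryonic stem cell line in wide use, grown in RSeT medium for a naive-like state. Both groups were transfected with a gapmer, an antisense oligonucleotide that leads RNase H to the RNA it pairs with. The 3 knockdown libraries (a, b and c) received the ALR gapmer and the 3 control libraries (a, b and c) a control gapmer, and total RNA was taken 48 h later. The labels do not say whether libraries of a group came from separate cultures, so p-values measure the spread between these libraries, which may be technical. The gene set was fixed by name: 43 gene symbols, all with a row among the 53719 rows of the deposited count table. The series concerns alpha satellite RNA and rRNA expression, and this comparison asks whether the factors that process rRNA changed with the knockdown. The level of alpha satellite RNA itself was not analysed here.

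The processome is the large particle that forms on the nascent ribosomal RNA precursor in the nucleolus, folds it around the U3 small nucleolar RNA and cuts it to release the small-subunit precursor. The box C/D and box H/ACA snoRNPs guide methylation and pseudouridylation of the same precursor, and the box H/ACA proteins also belong to telomerase. Rapidly dividing cells such as embryonic stem cells make ribosomes at a high rate, and many of these genes are textbook targets of MYC, which binds the E-box CACGTG.

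Before any fold change, the members' promoters showed what they share in sequence. RefSeq promoter windows (GRCh38.p14, 250 bases before to 50 after the annotated start) were found for 38 of the 43 genes. Those without a window in the table were NOP58, NOLC1, MPHOSPH10, DCAF13 and RRP12. The E-box CACGTG, which reads the same on both strands, was in 16 of the 38 windows (42.1%), in 9.46% of the 11136 windows of tested genes and in 7.43% of all 27305 windows. All 16 genes had an E-box between 40 bases before and 50 bases after the start, a range chosen after the positions were seen. In that range 2.99% of the windows of tested genes and 2.29% of all windows held one. The TATA box TATAAA, searched on both strands, was in 3 of the 38 windows (7.89%) and in 6.51% of those of tested genes. A 10-base form of the NRF1 motif was in 3 of the 38 windows (7.89%) and in 2.10% of those of tested genes. These are letter matches, not measured binding.

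**Figure D1:**
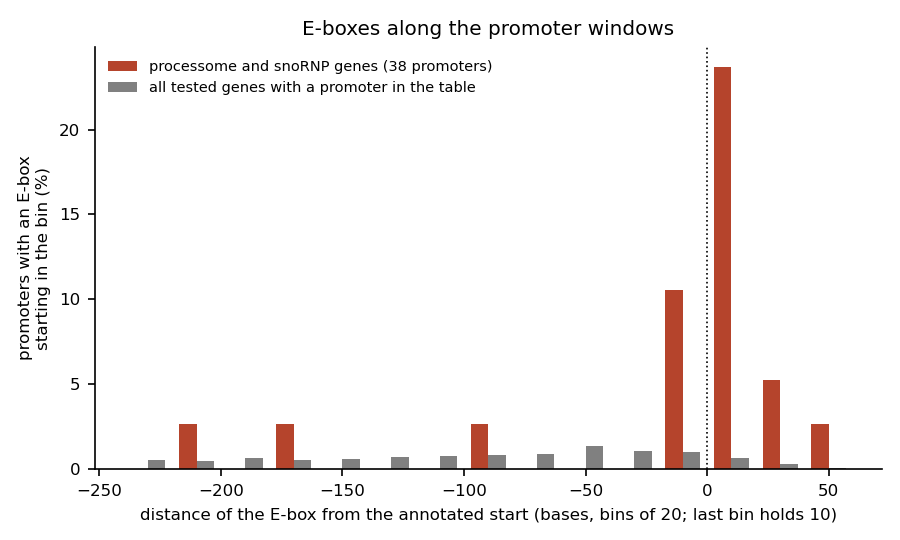
Share of promoter windows (y axis, percent) in which an E-box starts in each 20-base bin of distance from the annotated start (x axis, bases), for 38 processome and snoRNP genes (red) and for all tested genes with a window (grey). The red bars stand highest in the 20 bases from the start, where 23.7% of the members' windows held an E-box.

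The stretches shown here lie around the start of members with an E-box on it. They run from 30 bases before the start to 24 bases from it, on the gene's own strand, with the E-box in capitals. RRP9 lies at chr3:51941881-51941934 (minus strand), FBL at chr19:39846356-39846409 (minus), IMP4 at chr2:130342867-130342920 (plus), PWP2 at chr21:44107369-44107422 (plus), NOL6 at chr9:33473901-33473954 (minus), NOP10 at chr15:34343113-34343166 (minus), WDR43 at chr2:28894637-28894690 (plus) and RCL1 at chr9:4792914-4792967 (plus). They were chosen because the sections on fold change return to them, and because they include genes with estimates on both sides of 0: WDR43 and RCL1 were lower in every knockdown library, RRP9, IMP4, PWP2 and NOL6 higher in every one, and FBL and NOP10 overlapped between groups.
RRP9: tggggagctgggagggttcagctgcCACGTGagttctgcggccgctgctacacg
FBL: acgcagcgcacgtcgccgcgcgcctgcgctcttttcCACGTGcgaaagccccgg
IMP4: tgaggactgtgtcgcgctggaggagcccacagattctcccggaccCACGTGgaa
PWP2: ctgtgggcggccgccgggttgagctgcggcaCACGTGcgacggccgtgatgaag
NOL6: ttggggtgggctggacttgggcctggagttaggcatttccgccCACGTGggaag
NOP10: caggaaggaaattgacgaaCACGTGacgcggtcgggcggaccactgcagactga
WDR43: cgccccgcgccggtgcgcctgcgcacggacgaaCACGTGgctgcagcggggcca
RCL1: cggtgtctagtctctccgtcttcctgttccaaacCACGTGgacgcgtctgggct
The E-box began 5 bases before the start in RRP9 and 11 before it in NOP10. Its first base was base 7 of the transcript in FBL, 16 in IMP4, 2 in PWP2, 14 in NOL6, 4 in WDR43 and 5 in RCL1. Estimates lay on both sides of 0 with and without an E-box, and a difference between these genes was not tested. Of the 15 tested members with one, 10 had a log2 fold change above 0 (median 0.08), as did 17 of the 19 with a window and no E-box (median 0.07).

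Total counts were 25087629 to 36576752 per library. Knockdown library a stood apart: it had counts in 29678 rows, against 25898 to 26788 in the other 5, and the first principal component (36.2% of the variance) set it at -53.4 with the others between 4.82 and 15.4. Results are therefore also given without each library. Of 9 pluripotency genes, SOX2 was listed at 0 and 8 were tested, with log2 fold changes from -0.06 (DPPA4) to 0.42 (POU5F1), a median of 0.05 and 0 past an edgeR adjusted p of 0.05. POU5F1 had the smallest p, at 133 ± 16.9 CPM (library-size-scaled counts, with library sizes scaled by the TMM method) under knockdown and 99.8 ± 13.3 in the controls (SD, n = 3 each; edgeR adjusted p = 0.0948). SALL4, TDGF1 and L1TD1 had log2 fold changes of 0.002, 0.004 and -0.008. Of 9 naive markers, 8 were tested, among them DPPA3 with 467 to 710 counts per library and TFCP2L1 with 680 to 1073, and KLF17, with 1 to 10 counts, was not. Their summed level was 73.3 to 81.4 CPM under knockdown and 73.2 to 78.9 in the controls, with a median log2 fold change of 0.03 and 0 past the adjusted threshold. Of these naive markers, 4 were above 0 and 4 below. DNMT3L had the smallest p, with 41, 45 and 36 counts in knockdown and 85, 75 and 58 in control libraries. Its log2 fold change was -0.72 ± 0.27 (SE; edgeR adjusted p = 0.258). Of 16 differentiation markers, 8 had enough counts to be tested. The summed level of these 8 was 18.1 to 19.7 CPM with the knockdown and 15.3 to 17.7 in the controls, and 0 of the 8 passed an edgeR adjusted p of 0.05. Most of this sum was MIXL1, at 13.1 ± 0.888 CPM against 11.3 ± 1.19 (SD, n = 3 each). Of the 8, 5 were above 0 and 3 below. EOMES had the smallest p, with 15, 16 and 10 counts in knockdown and 4, 9 and 7 in control libraries (edgeR adjusted p = 0.304). The part of these marker genes in the results was not tested. In bulk RNA, fewer cells of a type and less RNA per cell cannot be told apart.

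Of the 43 genes, 39 had enough counts to be tested and 4 were listed at 0 in all 6 libraries. The latter were EMG1, a methyltransferase of the small-subunit rRNA, PNO1, the partner of the nuclease NOB1, DIMT1, which dimethylates the same rRNA, and RIOK2, a kinase of late small-subunit maturation. Other genes that dividing cells use were also listed at 0, among them the helicases DDX47 and DDX49, the assembly factors NIP7, PPAN and MAK16, the polymerase I factor RRN3, and the pluripotency gene SOX2. A value of 0 in the table is therefore given only as listed, not as absence of expression, and the cause was not tested.

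Differences between the groups were small across the 39 genes. With edgeR's quasi-likelihood test, 0 of the 39 passed a Benjamini-Hochberg adjusted p of 0.05, where 0.786% of the 19721 genes tested did. At an unadjusted p under 0.05 there were 3 members, all higher (7.69%), where 14.3% of all genes passed (6.68% higher and 7.57% lower). DESeq2's Wald test and limma-voom also put 0 of the 39 past the adjusted threshold, with 2 and 4 past the unadjusted one. The 95% intervals of the log2 fold change stayed within 0.5 of 0 for all 39 genes and within 0.3 of 0 for 34, the exceptions being RRP9, TBL3, WDR3, NOP14 and NOC4L. On the edgeR estimate 30 of 39 were above 0 (76.9%), where 54.4% of all genes were, and the median log2 fold change was 0.07 against 0.02 over all genes. The members were chosen with a small excess of higher ribosome biogenesis genes in these libraries already known, so this share is a description.

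**Figure D2:**
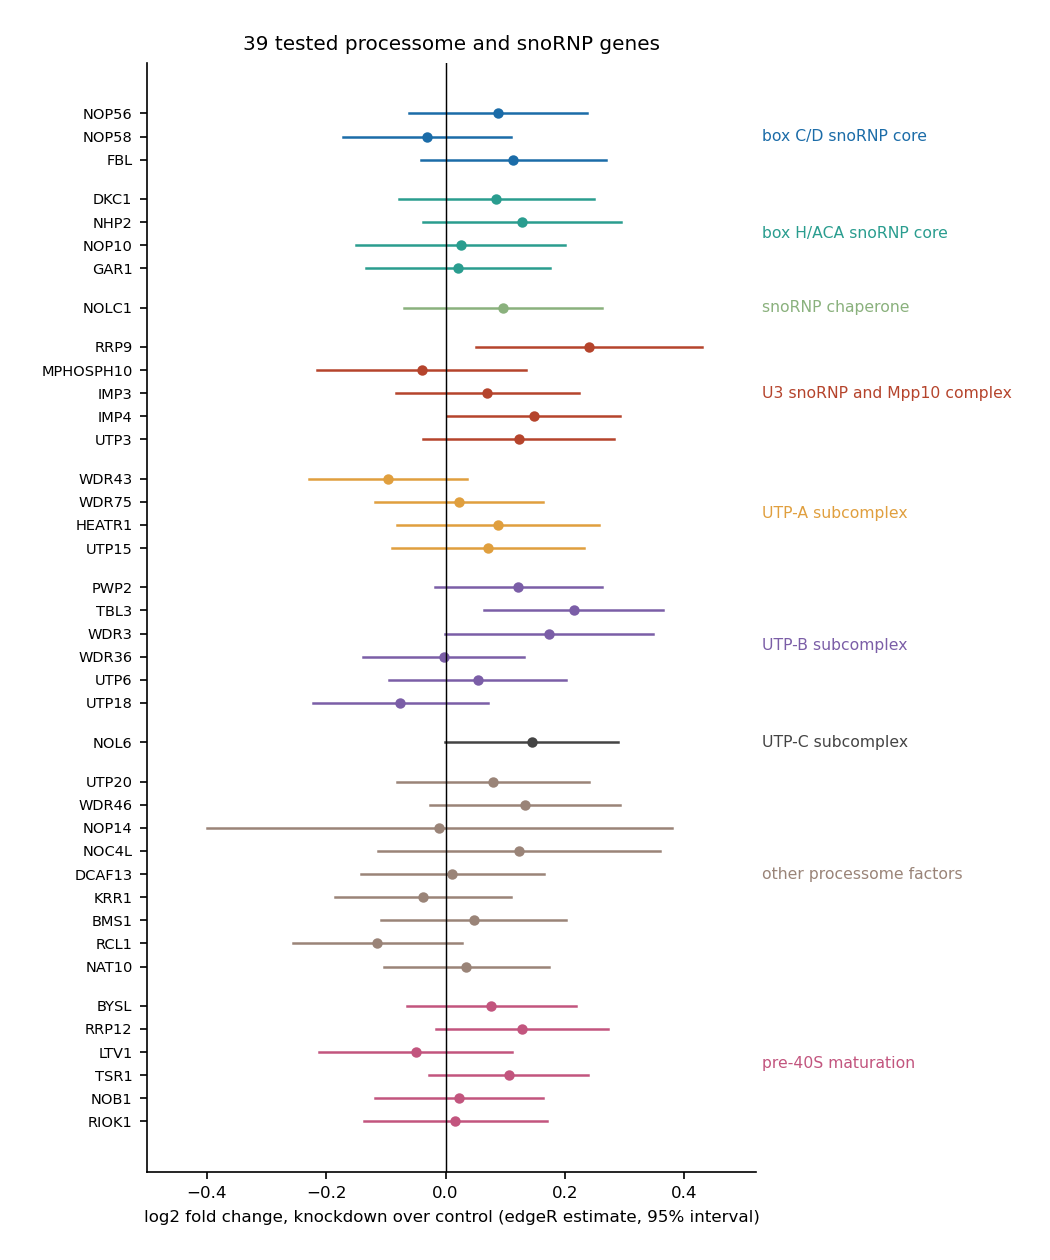
Log2 fold change of each of the 39 tested genes (x axis, knockdown over control, edgeR estimate as a point with its 95% interval as a line), grouped by role along the y axis. Most points lie to the right of 0, most intervals cross it, and the estimates run from -0.11 (RCL1) to 0.24 (RRP9).

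The box C/D core proteins were abundant and close between groups. NOP56, which with NOP58 forms the scaffold of every box C/D particle, had 277, 295 and 261 CPM in the knockdown (libraries a, b, c, in this order throughout) and 265, 250.0 and 268 in the controls. NOP58 had 224, 231 and 218 CPM against 219, 241 and 228. Both genes overlapped between groups, with log2 fold changes of 0.09 ± 0.07 and -0.03 ± 0.06 (SE). FBL, the methyltransferase fibrillarin, had 154, 167 and 144 CPM against 151, 139 and 140. Knockdown library b was the highest for FBL and library c fell inside the control range (log2 fold change 0.11 ± 0.07, edgeR adjusted p = 0.505).

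The 4 box H/ACA proteins were all slightly above 0, and 0 of them passed the adjusted or the unadjusted threshold. NHP2, an RNA-binding core protein, had 38.0, 42.0 and 37.4 CPM in knockdown and 36.9, 33.3 and 37.3 in control libraries. Its groups did not overlap, though the nearest values almost met (log2 fold change 0.13 ± 0.08, edgeR adjusted p = 0.478). DKC1, the pseudouridine synthase dyskerin, had 138, 152 and 127 CPM against 128, 128 and 138 (log2 fold change 0.09 ± 0.07). NOP10 and GAR1, the small subunits that hold and flank dyskerin, had log2 fold changes of 0.03 ± 0.08 and 0.02 ± 0.07. TERC, the telomerase RNA that these proteins bind, had 21.1 ± 2.65 CPM against 21.3 ± 0.245 (log2 fold change -0.01 ± 0.10). NOLC1, the chaperone that escorts snoRNPs to the nucleolus, had 301, 324 and 269 CPM against 289.8, 273.5 and 273.1, so that knockdown libraries b and c lay on opposite sides of all 3 controls.

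The U3 and Mpp10 proteins included 2 of the 3 members past the unadjusted threshold. RRP9, which binds the U3 RNA, had 31.1, 32.2 and 29.8 CPM with the knockdown and 29.4, 23.6 and 25.9 without it. All knockdown values lay above all controls, with control library a close below them. The log2 fold change was 0.24 ± 0.09 (SE; 95% interval 0.05 to 0.43; unadjusted p = 0.0169, edgeR adjusted p = 0.240), the largest estimate among the 39, and it ran from 0.16 without control library b to 0.33 without control library a. IMP4, which helps U3 pair with the rRNA precursor, had 52.4, 54.8 and 50.9 CPM against 48.7, 45.3 and 48.7. Its groups did not overlap either, and its log2 fold change was 0.15 ± 0.07 (unadjusted p = 0.0463, edgeR adjusted p = 0.341). Among its partners, IMP3 had a log2 fold change of 0.07 ± 0.07, MPHOSPH10, the protein that holds IMP3 and IMP4, one of -0.04 ± 0.08, and UTP3 one of 0.12 ± 0.07.

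The U3 RNA, the core of the particle, varied more between libraries than between groups. The SNORD3A row had 99.1, 178 and 224 CPM in knockdown and 156, 167 and 220 in control libraries. Knockdown library a was the lowest and knockdown library c the highest of the 6 (log2 fold change -0.12 ± 0.22, edgeR adjusted p = 0.854). The U3 rows are near-identical copies, so their separate counts are uncertain. Of 15 small RNAs listed (U3, U8, U13, U14, U17 and TERC), 5 could be tested and 0 passed the adjusted or the unadjusted threshold. Those tested were TERC and the U3 rows SNORD3A, SNORD3B-1, SNORD3B-2 and SNORD3C. A further 9 were listed at 0 in every library, among them all rows of U8, U13, U14 and U17. No change could be read for these 4 families.

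The UTP-A proteins bind the start of the precursor before the rest of the particle. WDR43 had 229, 237 and 229.9 CPM with the knockdown and 241, 253 and 250.1 without it. All 3 knockdown values were below all 3 controls, and the log2 fold change of -0.10 ± 0.06 had an edgeR adjusted p of 0.511 and lay between -0.12 and -0.09 when each library was left out. The other UTP-A genes were above 0: HEATR1 at 0.09 ± 0.08, UTP15 at 0.07 ± 0.07 and WDR75 at 0.02 ± 0.06.

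The UTP-B proteins, a tower of WD-repeat propellers beside U3, held the member with the smallest p. TBL3 had 40.1, 41.6 and 42.4 CPM in knockdown and 36.7, 36.7 and 33.6 in control libraries. The groups were clearly apart, with a log2 fold change of 0.21 ± 0.07 (95% interval 0.06 to 0.37; unadjusted p = 0.00901), yet over all genes the edgeR adjusted p was 0.190. It lay between 0.119 and 0.696 in the alternatives, and the log2 fold change was 0.09 after removal of the GC trend described with the GC figure. WDR3 had 60.5, 64.5 and 52.0 CPM against 52.1, 52.7 and 52.3. Its knockdown libraries a and b were high and library c lay just below the controls (log2 fold change 0.17 ± 0.08, edgeR adjusted p = 0.351). Without knockdown library b it was 0.10. Without knockdown library c it was 0.24, and WDR3 was then the 1 member past the threshold (edgeR adjusted p = 0.0495), in a fit that called 1309 of all genes instead of 155. On the other strand, WDR3 shares exonic bases with SPAG17 and TBL3 with NOXO1. The NOXO1 row had 9, 9 and 23 counts in knockdown and 24, 23 and 31 in control libraries, where TBL3 had 1042 to 1387.

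The remaining UTP-B genes split in sign. PWP2 was higher in every knockdown library (66.0, 65.7 and 60.7 CPM against 60.1, 58.3 and 58.4; log2 fold change 0.12 ± 0.06, edgeR adjusted p = 0.419). UTP6 and WDR36 had log2 fold changes of 0.05 ± 0.07 and -0.003 ± 0.06. UTP18, which links the particle to the nuclease that degrades the cut spacer, had 75.1 ± 2.93 CPM against 79.2 ± 4.40 (SD, n = 3 each; log2 fold change -0.08 ± 0.07). NOL6, of the UTP-C complex, had 74.6, 81.1 and 75.1 CPM against 71.0, 71.7 and 66.3. Its groups did not overlap (log2 fold change 0.14 ± 0.07, unadjusted p = 0.0504, edgeR adjusted p = 0.351).

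**Figure D3:**
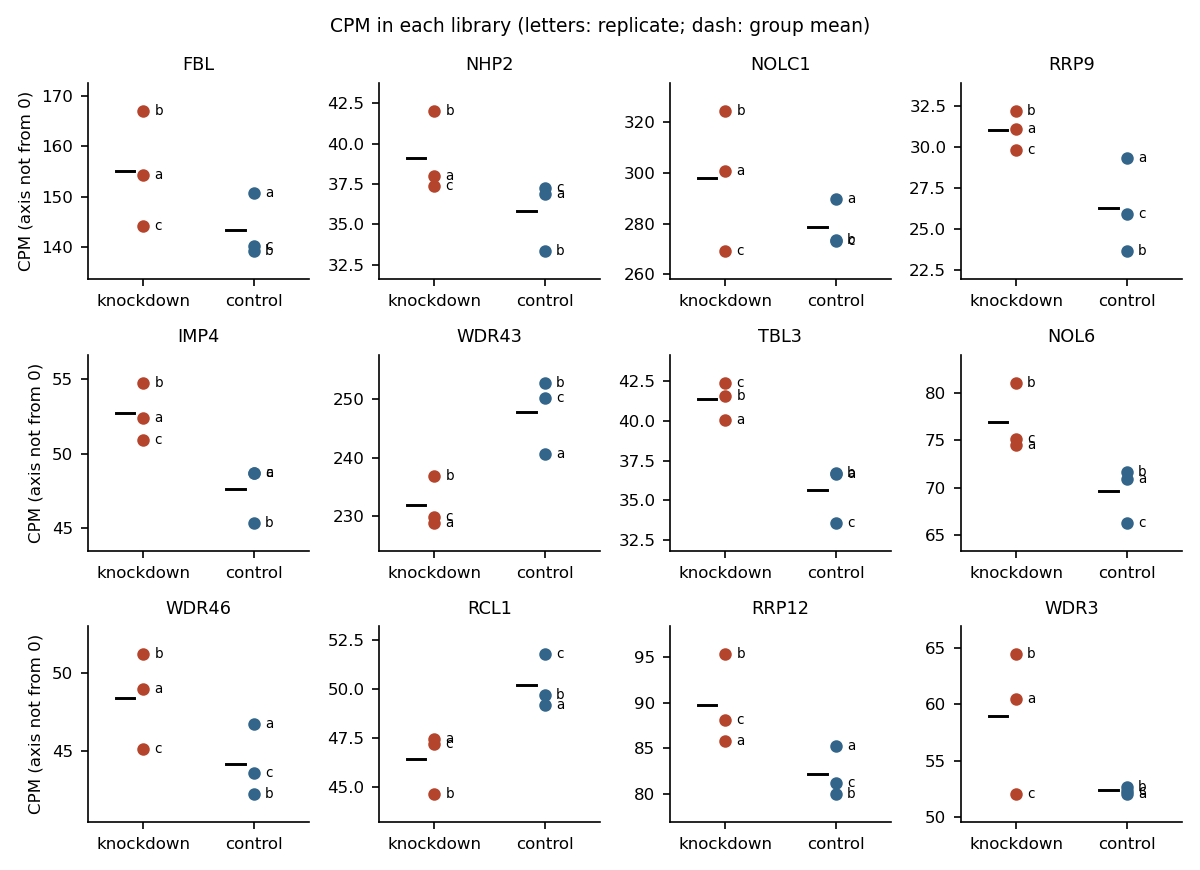
CPM (y axis, not from 0, a scale per panel) of 12 genes in the 3 knockdown (red) and 3 control (blue) libraries, with replicate letters beside the points and a dash at each group mean. RRP9, IMP4, TBL3 and NOL6 do not overlap between groups, whereas knockdown library c sits among the controls in FBL and WDR46 and below all 3 controls in NOLC1 and WDR3.

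Among the other processome factors, the catalytic and GTP-binding proteins were near 0. NAT10, the cytidine acetyltransferase of the small-subunit rRNA, had 159 ± 6.15 CPM against 155 ± 5.77 (SD, n = 3 each; log2 fold change 0.03 ± 0.06). BMS1, the processome GTPase, had a log2 fold change of 0.05 ± 0.07, and its count is uncertain because the annotation names 18 pseudogene copies of it. RCL1, the protein that BMS1 brings into the particle, had 47.4, 44.6 and 47.2 CPM in knockdown and 49.2, 49.7 and 51.8 in control libraries. All its knockdown values were below its controls (log2 fold change -0.11 ± 0.06, edgeR adjusted p = 0.455), the lowest estimate of the 39. WDR46 had 48.9, 51.2 and 45.1 CPM against 46.7, 42.2 and 43.6, an overlap made by knockdown library c (log2 fold change 0.13 ± 0.07, edgeR adjusted p = 0.438). UTP20, a long helical-repeat scaffold, had a log2 fold change of 0.08 ± 0.07, DCAF13 one of 0.01 ± 0.07 and KRR1 one of -0.04 ± 0.07.

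NOP14 and NOC4L, which bind each other in the particle, were the least precisely measured members. NOP14 had 3.49 to 4.82 CPM in the 6 libraries and a log2 fold change of -0.01 ± 0.18 (95% interval -0.40 to 0.38). It shares exonic bases with NOP14-AS1 on the other strand, a row with 337 to 379 counts per library. NOC4L had 23.9 ± 2.81 CPM against 22.0 ± 2.62 (SD, n = 3 each; log2 fold change 0.12 ± 0.11).

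The late factors that carry the small-subunit precursor to the cytoplasm were near 0 or slightly above. RRP12, a repeat protein needed for export, had 85.8, 95.3 and 88.1 CPM in knockdown and 85.3, 79.9 and 81.2 in control libraries. Its groups did not overlap, but knockdown library a and control library a were close (log2 fold change 0.13 ± 0.07, edgeR adjusted p = 0.408). TSR1, a GTPase-like factor, had 111 ± 4.31 CPM against 103 ± 1.37 (SD, n = 3 each; log2 fold change 0.11 ± 0.06), and BYSL had 44.6 ± 1.65 against 42.3 ± 0.661 (log2 fold change 0.08 ± 0.07). Both were higher in every knockdown library. NOB1, the nuclease of the last cut, had a log2 fold change of 0.02 ± 0.06, the kinase RIOK1 one of 0.02 ± 0.07 and LTV1 one of -0.05 ± 0.07.

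Knockdown and control values were fully apart in 11 of the 39 genes (28.2%), as they were in 18.9% of all genes. The knockdown was higher in 9 of the 11 (23.1% of the members, where 9.55% of all genes were so) and lower in 2, WDR43 and RCL1 (5.13%, where 9.37% of all genes were so). All of the 9 higher genes except TSR1 were among the 13 members with the highest GC content. All tested genes of that GC range had a median log2 fold change of 0.09. The share of them with groups fully apart was not counted. Per kilobase of exon, the mean level over the 6 libraries ran from 1.17 CPM per kb for NOP14 to 72.6 for NOLC1. The box C/D proteins were near the top (NOP58 68.8, FBL 68.7 and NOP56 49.9 CPM per kb), NOP10 was at 64.0 and WDR43 at 58.1. The lowest after NOP14 were KRR1 (3.40), TBL3 (5.39) and WDR3 (5.42). The exon length is the union over all annotated isoforms, so genes with long rare isoforms appear lower. The genes past the unadjusted threshold, at 5.39 to 18.2 CPM per kb, were not among the most abundant.

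The 3 knockdown libraries did not agree among themselves. Each gene's log2 CPM was compared with its own mean over the 6 libraries. The median deviation of the 39 genes was 0.03, 0.12 and -0.05 in the knockdown libraries and -0.02, -0.01 and -0.02 in the controls. Knockdown library b held the highest value of 25 of the 39 genes, and knockdown library c the lowest of 11. The controls were close together and the knockdown libraries lay on both sides of them. Summed over the 39 genes, the level was 3813 ± 199 CPM with the knockdown and 3677 ± 42.0 without it (SD, n = 3 each), a difference of 3.70%, smaller than the SD of the knockdown libraries. The SD of single genes on the log2 scale had a median of 0.067 in the knockdown and 0.054 in the control group, and over all genes the knockdown group was also the wider, at 0.144 against 0.115.

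**Figure D4:**
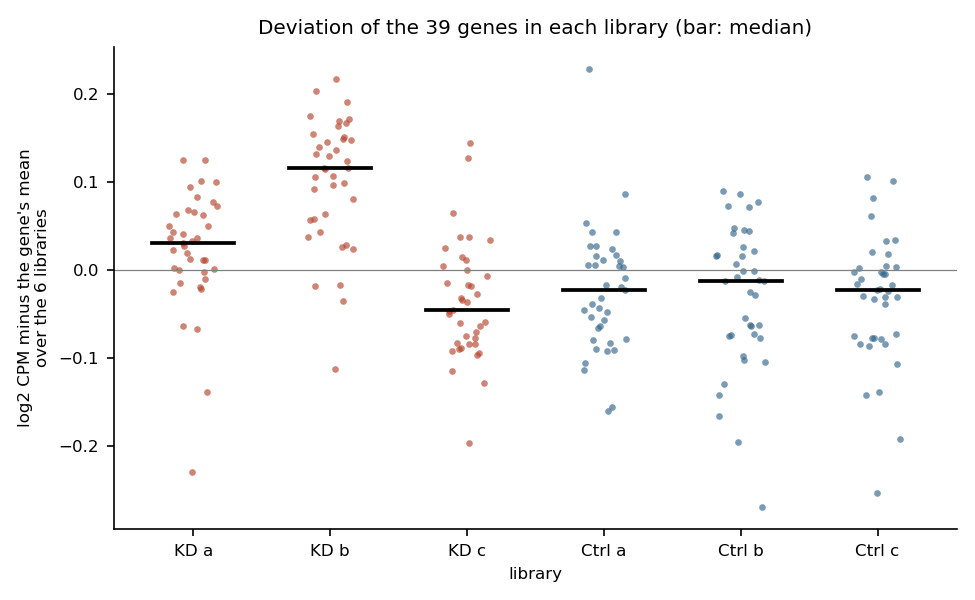
Deviation of each of the 39 genes from its own mean over the 6 libraries (y axis, log2 CPM) in each library (x axis), with a bar at the median. Knockdown library b is highest (median 0.12) and knockdown library c lowest (-0.05), with the 3 controls between -0.02 and -0.01.

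Without knockdown library b the median log2 fold change was 0.03 and 24 of 39 genes were above 0. Without knockdown library a, the one that stood apart over all genes, it was 0.06 with 30 of 39 above 0, and without knockdown library c 0.08 with 30 of 39. Without control library a, b or c it was 0.06, 0.06 and 0.07, with 29, 31 and 30 of 39 above 0. Of all genes, 49.7%, 51.2% and 52.1% were above 0 without knockdown library a, b or c. Without control library a, b or c these shares were 55.3%, 53.8% and 54.1%. For single genes, 22 stayed above 0 and 5 below 0 in all 6 of these fits (WDR43, UTP18, KRR1, RCL1 and LTV1), and 12 changed sign. Without knockdown library b the estimate was 0.01 for DKC1 and for UTP15, 0.02 for NOLC1, 0.04 for NOP56, 0.05 for FBL and -0.05 for NOP10.

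Fold change followed base composition among the members, as it did over all genes. Across the 39 genes, log2 fold change and the GC content of the longest transcript had a Pearson r of 0.58 and a Spearman rho of 0.59. Across the 15964 tested genes with annotation r was 0.20 and rho 0.30. These are correlations across genes measured in the same 6 libraries, and genes are not independent replicates. All 13 members with the highest GC content (53.5% to 64.8%) were above 0, with a median of 0.13, and the 4744 tested genes in that GC range had a median of 0.09. They include RRP9, TBL3, NOL6, IMP4, PWP2 and RRP12. Of the 13 with the lowest GC content (36.0% to 42.3%), among them NOP58, WDR43, KRR1 and WDR3, 7 were above 0 with a median of 0.01, and the 3694 genes in that range had a median of -0.04. The median deviation of the GC-rich members was 0.05, 0.15 and 0.01 in the knockdown and -0.02, -0.08 and -0.08 in the control libraries. These medians did not overlap between groups, but single GC-rich genes did (FBL, NOB1, WDR46, IMP3 and NOC4L). The same medians were not computed for all genes of that GC range. For the GC-poor members it was 0.02, 0.09 and -0.08 against -0.08, 0.04 and 0.003.

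**Figure D5:**
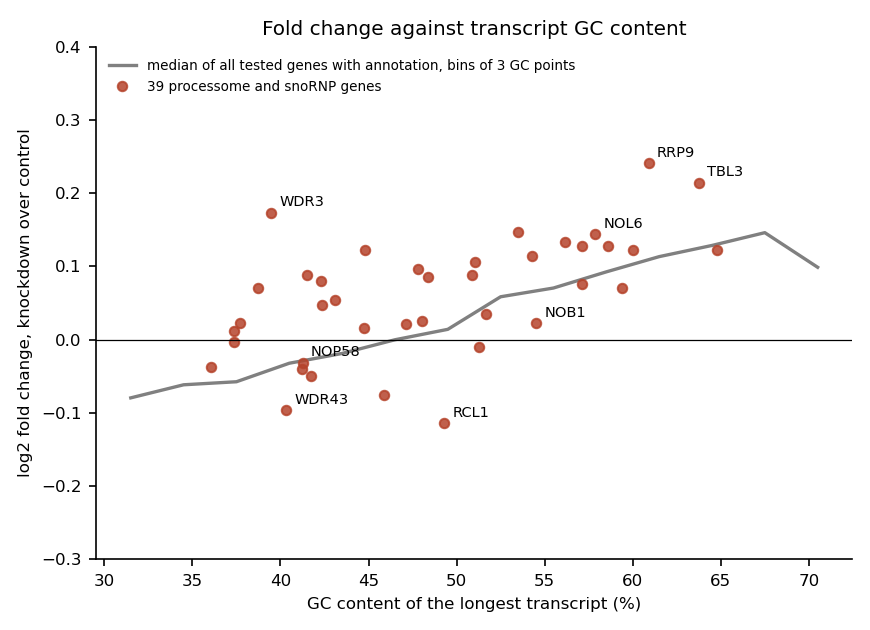
Log2 fold change (y axis, knockdown over control) against the GC content of the longest transcript (x axis, percent) for the 39 genes (red points), with the median of all tested genes with annotation in bins of 3 GC points (grey line). Points and line both rise with GC content, and RRP9 and TBL3 lie above the line at the GC-rich end.

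The shortest members had higher estimates too. Log2 fold change and the log of gene span had a Pearson r of -0.41 across the members and -0.08 across all tested genes with annotation. The median span of the members was 19.8 kb, against 34.3 kb over the tested genes with annotation. The 13 shortest members (1.47 to 11.9 kb) were all above 0 with a median log2 fold change of 0.12, and the 3163 tested genes in that range had a median of 0.08. The middle 13 had a median of 0.02 with 9 above 0, and the longest 13 a median of 0.03 with 8 above 0. All tested genes in these 2 ranges had medians of 0.04 and 0.008. When each library's trend on GC content was removed, the members' median was 0.04 with 29 of 39 above 0, RRP9 was at 0.12, TBL3 at 0.09 and IMP4 at 0.08. Other estimates came close to 0, with NOL6 and FBL at 0.04, NHP2 at 0.03, RRP12 at 0.02 and PWP2 at 0.005. WDR3 moved the other way, to 0.21. When the trend on gene length was removed, the median was 0.02 with 23 of 39 above 0, RRP9 was at 0.18 and TBL3 at 0.15. Of all genes in these fits, 48.7% were above 0 after removal of the GC trend and 47.2% after removal of the length trend. In both, 0 of the 39 passed an edgeR adjusted p of 0.05. The part of RNA quality or library preparation in these trends was not tested.

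The rest of the pathway was read from lists of named genes. Of 41 further small-subunit factors, 38 were tested, 27 were above 0 (median log2 fold change 0.06) and 0 passed the adjusted threshold. At an unadjusted p under 0.05, 6 were higher and 1, the helicase DDX10, was lower. The smallest p belonged to TSR3, which modifies the small-subunit rRNA (19.9 ± 1.49 CPM against 16.5 ± 0.715, SD, n = 3 each; log2 fold change 0.27 ± 0.09, edgeR adjusted p = 0.195). Of 12 snoRNP assembly factors, 5 were above 0 (median -0.009), 2 were higher and 2 lower at the unadjusted threshold, and 0 passed the adjusted one. The helicase RUVBL1 had the smallest p (log2 fold change 0.17 ± 0.06, edgeR adjusted p = 0.250).

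Large-subunit assembly factors and the polymerase I machinery served as neighbours. Of 42 tested large-subunit factors, 33 were above 0 (median 0.07), 6 were higher and 0 lower at the unadjusted threshold, and 0 passed the adjusted one. The smallest p was that of RRS1 (log2 fold change 0.29 ± 0.09, edgeR adjusted p = 0.160). Their median deviation was also highest in knockdown library b (0.12). The same library was highest for the polymerase I genes (0.06), the snoRNP assembly factors (0.06) and the pluripotency (0.11), primed (0.14), naive (0.10) and differentiation (0.10) markers. Among these lists its position was thus not limited to ribosome assembly genes. The small RNA list was highest in knockdown library c (0.41), and over all genes the median deviation in knockdown library b was 0.01. Of 13 tested polymerase I genes, 7 were above 0 (median 0.00058), and 0 passed the adjusted or the unadjusted threshold. The smallest p there was that of POLR1D, a subunit shared with polymerase III (log2 fold change -0.12 ± 0.06, edgeR adjusted p = 0.400). No test of a difference between these lists and the 39 genes was made.

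The annotation adds limits for single members. In 5 of the 43 genes (NOP56, NOP58, DKC1, WDR43 and TSR1) introns or exons hold 16 snoRNA-type genes in all, so that these genes encode both snoRNP or processome proteins and guide RNAs. Exons of 21 members overlap a gene on the opposite strand, among them TBL3 and IMP4, which were past the unadjusted threshold. The libraries were made with a directional kit, but the strand setting used in counting is not given in the sources used here, so reads of such pairs may have been shared or dropped. Named copies exist for 8 members, which makes their counts uncertain: NOP56, NHP2, IMP3, DCAF13, KRR1, BMS1, DIMT1 and LTV1.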

How the data were processed

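RNA-seq of 6 libraries was analysed from 1 deposited table of raw counts, 1 row a gene symbol. Per the submitters' processing notes, Trimmomatic 0.39, STAR 2.7.8a, featureCounts and Subread 2.14.2 were used with build hg38. The annotation, the strand setting and the treatment of multi-mapping reads are not given in the sources used here. Symbols were joined to GENCODE release 29 (GRCh38), and 32837 rows matched.

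The default filterByExpr rule left 19721 genes with 99.9% of counts. Knockdown and control were compared with edgeR 4.0.16 (R 4.3.3), by TMM scaling and a two-sided quasi-likelihood test on group alone. Benjamini-Hochberg adjustment ran over all genes tested, and calls were made at 0.05. Biological variation (common coefficient) was 0.103. CPM values use TMM-scaled library sizes, and log2 CPM a prior count of 2. The procedure was also run on simulated counts. Genes there had either no change or one larger than the members' estimates, and no library was made to stand apart. That run therefore does not show how often changes of the members' size would be called.

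Alternatives were other scalings, DESeq2 1.42.0, limma-voom (limma 3.58.1), other filters, a replicate block, each library left out, removal of length or GC trends (splines with 5 degrees of freedom) and removal of rRNA and mitochondrial rows. The genes and lists were chosen with earlier results of these data known. Values in every library are given for members with an unadjusted p under 0.05, the smallest p in each role group and the largest rise and fall. NOP56, NOP58, DKC1, PWP2 and WDR3 were added after their values were seen.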

Additional observations from a re-analysis of the deposited data

How the results depend on the processing

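Across the alternatives, the number of members past an edgeR, DESeq2 or limma-voom adjusted p of 0.05 was 0, except without knockdown library c, where it was 1 (WDR3), so it ran from 0 to 1 over the fits that left out a library. The members' median log2 fold change was 0.07. Removal of the gene length trend gave 0.0181, and leaving out a library 0.03 to 0.08. The number of members above 0 was 23 to 32. At an unadjusted p under 0.05 there were 3 members, 9 under scaling by library size alone and 7 under upper-quartile scaling, all higher. These scalings moved all genes upward, with 60.2% and 58.3% of them above 0 against 54.4% in the main fit. The share of all genes past the unadjusted threshold in these scalings was not counted. Of all genes, 155 were called, 27 of them higher. Scaling by library size alone called 158 (56 higher) and upper-quartile scaling 157 (45 higher). DESeq2's Wald test called 530, the table with no low-count filter 1064, removal of the GC trend 235 and of the length trend 235 (over 15964 genes), and fits without a library 26 to 1309. The lowest came without control library a and the highest without knockdown library c. The causes were not tested. Deviations from the group means correlated by 1.23e-05 (a), 0.116 (b) and -0.0251 (c) between libraries with the same replicate letter. Libraries with different letters were not compared, so these values cannot decide whether a shared letter pairs libraries. A replicate block gave 393 calls, 0 of them members, and a members' median of 0.07. Depth limited NOP14 most, with 99 to 158 counts per library.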
